A study of Mus musculus with 4 samples.

Results

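The genes that encode the proteins of the large (60S) subunit of the cytoplasmic ribosome were followed through RNA from exosomes, small vesicles that cultured cells shed into their medium. Members were the protein-coding rows of the gene table whose symbol begins with Rpl or Rplp and a digit, which gave 53 genes of the 42977 rows listed. Of these, 46 encode standard subunit proteins and 7 are paralogs, that is, related genes with their own symbols (Rpl3l, Rpl7l1, Rpl10l, Rpl22l1, Rpl36al, Rpl39l and Rpl30l1). A count was recorded for 50 members, and these same 50 entered the tests, while Rpl8, Rpl35a and Rplp2 stood at 0 in all 4 libraries.

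The large subunit joins amino acids into protein. It holds the peptidyl transferase centre, the tunnel through which the new chain leaves, the particle of 5S ribosomal RNA, and a flexible stalk that recruits translation factors. Most mRNAs of ribosomal proteins begin with a C followed by a run of pyrimidines, the 5' terminal oligopyrimidine (TOP) tract, through which the mTOR pathway sets their translation. They are among the most abundant mRNAs of dividing cells and are often found in vesicle RNA.

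Mesenchymal stem cells (MSCs) were from the bone marrow of male SD rats aged 6 to 8 weeks and were used at passages 3 to 4. In the MSC-Exo group the cells had received DMSO, the vehicle, and in the MSCATV-Exo group 1 µmol/L atorvastatin, a statin that blocks cholesterol synthesis. Each group has 2 libraries. The treatment time is recorded both as 24 h and as 48 h. The samples are registered as mouse, whereas identifiers, build and growth protocol are those of rat, and the values were treated as rat. Whether the libraries of a group come from separate animals or cultures is not labelled, so every SD below measures the spread between these libraries only, which may be technical. The SE and p-values of edgeR and DESeq2 rest on the same libraries. They also draw on the spread of the other tested genes, so they are not the spread of a gene's own values alone.

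The 4 libraries held between 5350295 and 5947020 gene counts. Ribosomal RNA features with LOC257642 took 37.1% to 38.6% of the counts in 3 libraries and 43.3% in MSCATV-Exo replicate 1. Of 12 MSC marker symbols 11 were found, Vim and Col1a1 had at least 895 counts in every library, and Col1a2 was listed at 0. All 11 leukocyte markers had a count somewhere, with a median between 3.51 and 5.49 RPKM (reads scaled by gene length and library total) against 5.42 to 7.37 RPKM for the MSC markers. Their summed counts were 630 and 675 in MSC-Exo, against 519 and 630 in MSCATV-Exo. The log2 fold change was below 0 for 8 of the 11 leukocyte markers, with a median of -0.52. It was also below 0 for 6 of the 10 tested MSC markers, with a median of -0.03. For erythroid markers it was above 0 in 3 of 6 tested, with a median of -0.09. All 8 exosome markers were above 0, with a median of 0.32, and 5 of 8 were when scaled by total counts alone. edgeR called 0 of them. The part of the leukocyte markers in the results was not tested. In bulk RNA, fewer vesicles or cells of a kind and less RNA in each cannot be told apart.

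Large-subunit mRNAs were abundant in every library. Over the 50 members with a count, the median level was 64.4 and 73.1 RPKM in MSC-Exo replicates 1 and 2 and 82.8 and 82.7 RPKM in MSCATV-Exo replicates 1 and 2. All protein-coding genes had medians of 4.74, 4.70, 4.12 and 4.54 RPKM in the same order of libraries. The members' median was therefore 13.6 to 20.1 times the protein-coding median, and 99.5% to 99.6% of protein-coding genes lay below it. Olfactory receptor genes, a class of 1189 rows that marrow cells are not known to use, had medians of 1.71 to 2.48 RPKM and so show the level that rows without known expression reach here.

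**Figure D1:**
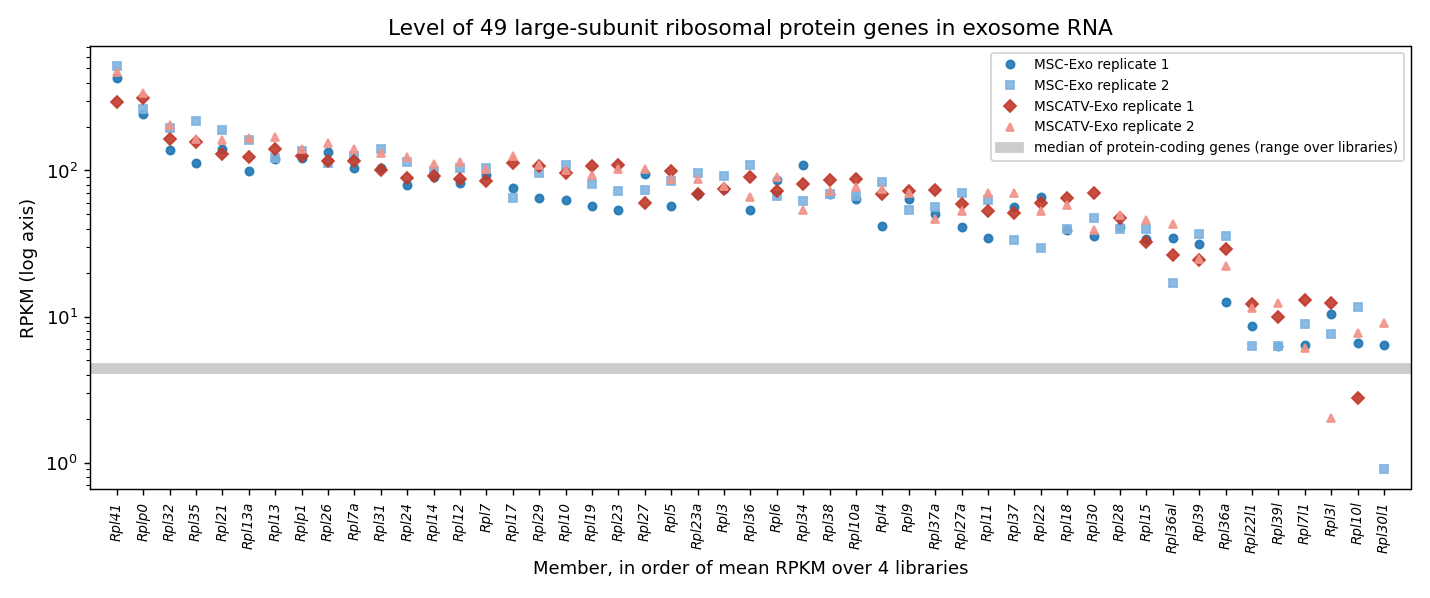
RPKM (log axis) of 49 large-subunit ribosomal protein genes in each of the 4 libraries, with genes in order of their mean level and a grey band for the range of the protein-coding median over the libraries. Rpl41 and Rplp0 stand at the top, with 428 and 242 RPKM in MSC-Exo replicate 1, and the paralogs other than Rpl36al form the low end.

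Rpl41, a very short basic peptide at the bridge between the subunits, was at 428, 519, 294 and 475 RPKM. That was the highest level of any member in 3 of the 4 libraries. Rplp0, the base of the stalk, followed with 242, 262, 316 and 342 RPKM, and was the highest member in MSCATV-Exo replicate 1. The order then went to Rpl32 (138, 196, 165 and 204 RPKM), a structural protein of the subunit. Next were Rpl35, at the rim of the exit tunnel, with 112, 217, 156 and 165 RPKM, and Rpl21 with 140, 189, 130 and 162 RPKM. The ranges of Rpl32, Rpl35 and Rpl21 overlapped, so these neighbours did not differ beyond their spread, whereas each library of Rplp0 stood above every value of all 3. These levels count each member's own row only. Other rows described as the same protein (copies, treated below) held 0% of such reads for Rpl41 and 12.3% for Rplp0. Among standard members with a count they held up to 86.3%, for Rpl19. How far the order rests on the assignment of reads was not tested.

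Among the 43 standard members with a count, the upper quartile was only 1.64 to 1.95 times the lower quartile. The lowest of them had 12.6 to 29.5 RPKM, which is above the protein-coding median in every library. Their order was similar from library to library, with Spearman's rho of 0.788 to 0.889 over the 43 genes for the 6 pairs of libraries, which share gene lengths and the same alignment. Low levels were found instead for the paralogs other than Rpl36al, which had a mean of 30.2 RPKM. Mean levels over the 4 libraries were 4.08 RPKM for Rpl30l1, 7.19 RPKM for Rpl10l, 8.06 RPKM for Rpl3l, 8.60 RPKM for Rpl7l1 and 8.69 RPKM for Rpl39l. Rpl3l is known from striated muscle and Rpl10l from testis.

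Relative to MSC-Exo, most large-subunit genes had slightly higher counts in MSCATV-Exo, but edgeR called none of them. The log2 fold change was above 0 for 42 of the 50 tested members and below 0 for 8, with a median of 0.25. The background was 49.4% above 0 and a median of -0.01 over all 33480 tested genes, and 50.6% above 0 over the protein-coding ones. Of these genes 0 passed edgeR's quasi-likelihood test at a Benjamini-Hochberg adjusted p under 0.05 (background 0%), and the members' adjusted p was 0.9999. At an unadjusted p under 0.05, edgeR gave 1236 genes (background 3.69%, of which 1.71% higher and 1.98% lower) and 5 of the 50 members, Rpl17, Rplp0, Rpl18, Rpl23 and Rpl19, all of them higher in MSCATV-Exo. DESeq2, run as an alternative, called 106 of 32181 genes (background 0.329%) and 2 of 49 members, Rpl17 and Rplp0. Spread between libraries was wide over all tested genes, with edgeR's common biological coefficient of variation at 0.559. That value is not specific to the members and may include technical spread.

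Other abundant mRNAs leaned toward higher values as well. Of 275 protein-coding genes above a mean of 20 RPKM that encode no ribosomal protein and are not LOC257642, 71.6% had a log2 fold change above 0, with a median of 0.22. An unadjusted edgeR p under 0.05 was reached by 42 of these 275, or 15.3%, and DESeq2 called 14 of them. Both MSCATV-Exo libraries stood above both MSC-Exo libraries for 18 of the 50 members, against a background of 16.1% of all tested genes and 42.2% of those 275. The opposite separation was found for 1 member, Rpl39, against 17.4% and 10.2%. The 31 remaining members overlapped between the groups. With total counts in place of TMM factors (trimmed mean of M-values, edgeR's scaling) the median of all genes moved to -0.11, the members' median was 0.15, and 36 of 50 were above 0.

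Much of the difference rested on MSC-Exo replicate 1. It was the lowest of the 4 libraries for 32 of the 50 tested members and the highest for 1. MSC-Exo replicate 2 was the lowest for 9 and the highest for 14, MSCATV-Exo replicate 1 for 4 and 16, and MSCATV-Exo replicate 2 for 5 and 19. MSC-Exo replicate 1 lay below both MSCATV-Exo libraries for 37 members, MSC-Exo replicate 2 for 22. Between the 2 MSC-Exo libraries themselves the members' median log2 ratio was 0.28, with 37 of 50 higher in replicate 2, so libraries given the same solvent differed by as much as the groups did.

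Against MSC-Exo replicate 1, MSCATV-Exo replicates 1 and 2 gave median log2 ratios of 0.38 and 0.38, with 41 and 44 of 50 members higher. Against MSC-Exo replicate 2 they gave 0.04 and 0.12, with 27 and 31 of 50 higher. The 2 MSCATV-Exo libraries were close to each other, with a median log2 ratio of -0.01 and 24 of 50 members higher in replicate 2. Leaving out MSC-Exo replicate 1 lowered the median log2 fold change to 0.15 with 32 of 50 above 0, and leaving out MSC-Exo replicate 2 raised it to 0.39 with 42 above 0.

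**Figure D2:**
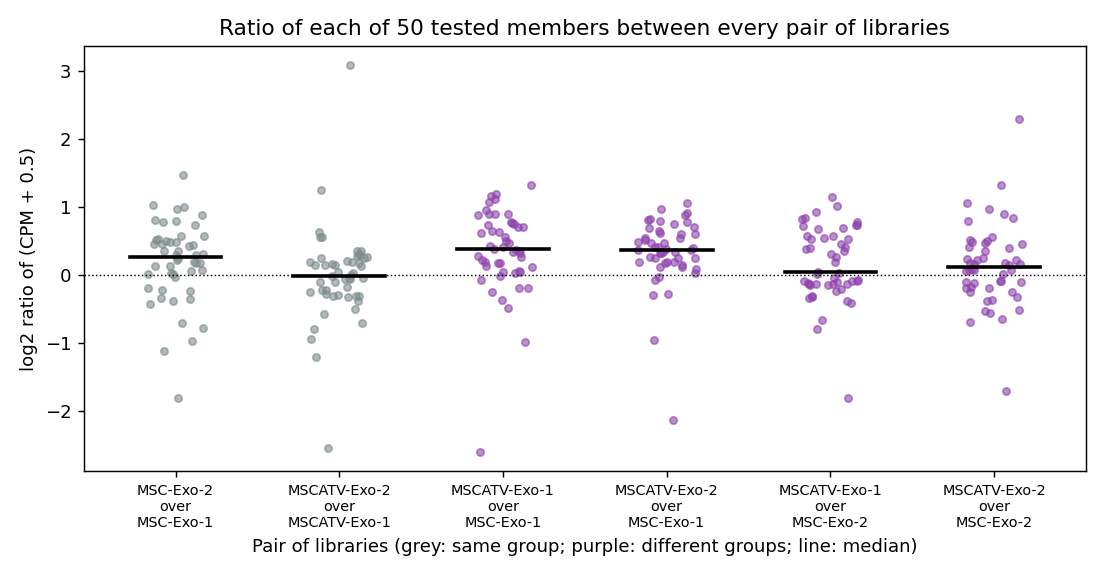
Log2 ratio of (CPM + 0.5) for each of the 50 tested members between every pair of libraries, with the median as a line (grey, same group; purple, different groups). The cloud lies highest in the comparisons with MSC-Exo replicate 1, including the one with MSC-Exo replicate 2 (median 0.28), and is centred near 0 between the MSCATV-Exo libraries.

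The members with the smallest edgeR p came from different places in the subunit. Rpl17, a protein at the rim of the exit tunnel (chr18:70969733-70972839 of rn6, plus strand), had 248 and 215 counts in MSC-Exo, against 410 and 435 in MSCATV-Exo. As CPM (counts scaled by the TMM-adjusted library total) these were 44.7 and 39.3 against 75 and 77.6, and the groups were far apart relative to their spread. The log2 fold change was 0.86 ± 0.27 (SE, n = 2 per group) with an unadjusted p of 0.00943 in edgeR, and DESeq2's adjusted p was 0.0483. Without any 1 library it stayed between 0.77 and 0.95.

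Rplp0 (chr12:46791528-46794797, minus strand) anchors the stalk and is often used as a reference gene in quantitative PCR. It held 1417 and 1536 counts in MSC-Exo, against 2052 and 2091 in MSCATV-Exo, or 268 ± 17.9 CPM against 374 ± 1.93 CPM (SD, n = 2). The groups did not overlap, and the log2 fold change of 0.48 ± 0.18 (SE) had an unadjusted edgeR p of 0.0208 and an adjusted p of 0.0425 in DESeq2. Leaving out each library in turn gave 0.41 to 0.55.

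Rpl18, a structural protein of the subunit (chr1:101700910-101703551, plus strand), had 42.3 and 44.2 CPM in MSC-Exo and 79.3 and 65.4 CPM in MSCATV-Exo. Its log2 fold change was 0.74 ± 0.28 (SE), with an unadjusted edgeR p of 0.0223. Rpl23, a protein of the face toward the small subunit (chr10:85721398-85725359, minus strand), had 25 and 34.7 against 57.8 and 49.7 CPM, a log2 fold change of 0.85 ± 0.32 (SE) and an unadjusted edgeR p of 0.0223. For both genes the groups stood clear of each other, but the fold of Rpl23 ranged from 0.62 without MSC-Exo replicate 1 to 1.10 without replicate 2. Rpl19, whose tail reaches to the small subunit (chr10:85978691-85981979, plus strand), had 38.7 and 55.1 against 82.5 and 65.8 CPM, with 0.66 ± 0.30 (SE) and an unadjusted edgeR p of 0.0494. It fell to 0.42 without MSC-Exo replicate 1 and was 0.94 without MSC-Exo replicate 2. Rpl23 and Rpl19 both lie on chromosome 10, which carries 8 of the 53 members.

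The next members by p were Rpl13, Rpl29, Rpl5, Rpl10a and Rpl28, each separated between the groups and none under an unadjusted p of 0.05. Rpl13, the closest standard member to that limit, had 83.4 and 85.3 CPM in MSC-Exo and 109 and 122 CPM in MSCATV-Exo, with a log2 fold change of 0.45 ± 0.24 (SE). Rpl29, a small basic protein near the tRNA sites, had 50.8 and 76.0 against 94.8 and 88.6 CPM, with 0.53 ± 0.28 (SE), and with 0.26 and 0.85 without MSC-Exo replicate 1 or 2. Its MSC-Exo libraries were further apart than its groups were from each other at their nearest values. Rpl28, absent from yeast and present in mammals, had the tightest libraries of the 5, with 64.0 ± 0.656 CPM in MSC-Exo and 82.7 ± 1.65 CPM in MSCATV-Exo (SD, n = 2), and a log2 fold change of 0.37 ± 0.25 (SE).

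**Figure D3:**
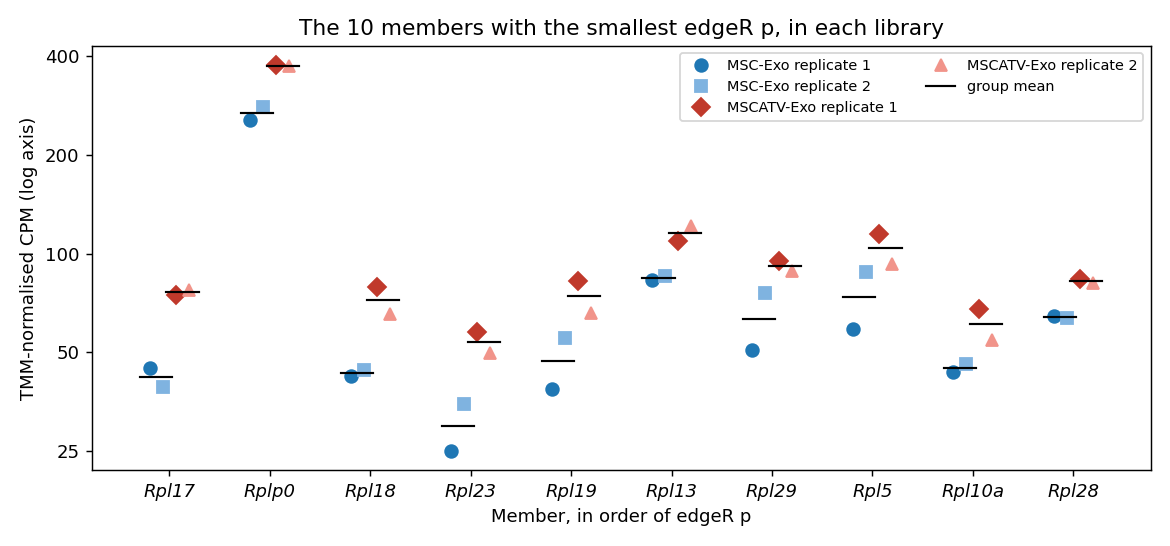
TMM-normalised CPM (log axis) in each library for the 10 tested members with the smallest edgeR p, with bars at the group means. Both MSCATV-Exo points lie above both MSC-Exo points for all 10 genes, from Rplp0 near 268 and 374 CPM down to Rpl23 near 29.9 and 53.8 CPM.

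By role, the stalk and its base had 3 tested genes, all above 0. Apart from Rplp0, Rplp1, which forms the tip of the stalk with Rplp2, had 57.8 and 66.1 CPM in MSC-Exo and 67.9 and 69.7 CPM in MSCATV-Exo, a narrow separation with a log2 fold change of 0.15. Rpl12, at the stalk's foot, had 57.3 and 73.4 against 69.0 and 82.6 CPM and overlapped between the groups, with 0.21. Rplp0 was thus the only stalk gene of the 3 under an unadjusted p of 0.05.

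Rpl5 and Rpl11 bind 5S ribosomal RNA, and when ribosome assembly is disturbed they hold back Mdm2, the regulator of p53. Rpl5 had 59.1 and 88.2 CPM in MSC-Exo and 115 and 93.3 CPM in MSCATV-Exo, with a log2 fold change of 0.50 ± 0.28 (SE). The groups did not overlap, and the fold change was 0.23 without MSC-Exo replicate 1 and 0.82 without MSC-Exo replicate 2. Rpl11 had 33.3 and 61.7 against 57.5 and 69.9 CPM, with 0.42 ± 0.34 (SE). Its groups overlapped, and its log2 fold change was 0.04 without MSC-Exo replicate 1 and 0.94 without MSC-Exo replicate 2.

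Around the exit tunnel 8 genes were tested and 7 were above 0, with a median of 0.15, but only 4 of 8 were above 0 with total counts. Rpl17 and Rpl19 are described above. Rpl4, which lines the tunnel, had 56.0, 113, 104 and 104 CPM, so that MSC-Exo replicate 1 alone stood apart, and its log2 fold change was 0.89 without MSC-Exo replicate 2 and -0.13 without replicate 1. Rpl35 had its lowest value in MSC-Exo replicate 1 and its highest in MSC-Exo replicate 2, with 48.3 and 94.9 CPM in MSC-Exo and 76.0 and 73.8 CPM in MSCATV-Exo. Its log2 fold change was 0.06 ± 0.33 (SE) and -0.04 with total counts. Rpl23a and Rpl31, which border the tunnel's opening, were at 0.03 and 0.01, and at -0.07 and -0.08 with total counts. Rpl26, at the opening too, had 70.0 and 60.3 against 69.4 and 83.8 CPM, with 0.23.

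Rpl39, a very small protein in the tunnel wall, was the only tested member with both MSCATV-Exo libraries below both MSC-Exo libraries. Its counts were low, 50 and 58 against 43 and 41, or 9.0 and 10.6 against 7.87 and 7.31 CPM. The log2 fold change was -0.37 ± 0.67 (SE), well within its error. Its paralog Rpl39l, known from testis, had 17 and 17 against 30 and 35 counts and a log2 fold change of 0.92 ± 1.03 (SE), also within its error.

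Near the peptidyl transferase centre and the tRNA sites, 4 of 5 tested genes were above 0, with a median of 0.29. Rpl3, whose loops reach toward the catalytic centre, had 92.2 and 114 CPM in MSC-Exo and 105 and 100 CPM in MSCATV-Exo, with a log2 fold change of -0.01 ± 0.24 (SE), so the difference was much smaller than its error. Rpl10, one of the last proteins to join the subunit, had 46.6 and 81.3 against 79.4 and 76.9 CPM, with 0.29. Rpl10a, in the stalk by which the used tRNA leaves, had 43.6 and 46.2 against 67.7 and 54.7 CPM, with 0.45 ± 0.28 (SE). Rpl36a, beside the exit site for tRNA, was low and scattered at 8.10 and 23.4 against 21.0 and 14.8 CPM, with 0.19 ± 0.56 (SE).

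At the subunit interface 3 of 4 genes were above 0. Rpl24, which bridges to the small subunit, had 38.9 and 56.8 CPM in MSC-Exo and 49.4 and 63.1 CPM in MSCATV-Exo, with overlapping groups and a log2 fold change of 0.23. Rpl30 had 15.8 and 21.5 against 35.1 and 18.2 CPM, with 0.51 ± 0.45 (SE), so that MSCATV-Exo replicate 1 alone was high. Rpl41, the member whose own row had the highest mean RPKM, leaned the other way, with 184 and 226 against 143 and 211 CPM and -0.21 ± 0.24 (SE). The groups overlapped for Rpl41, and leaving out a library moved it between -0.52 and 0.04.

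**Figure D4:**
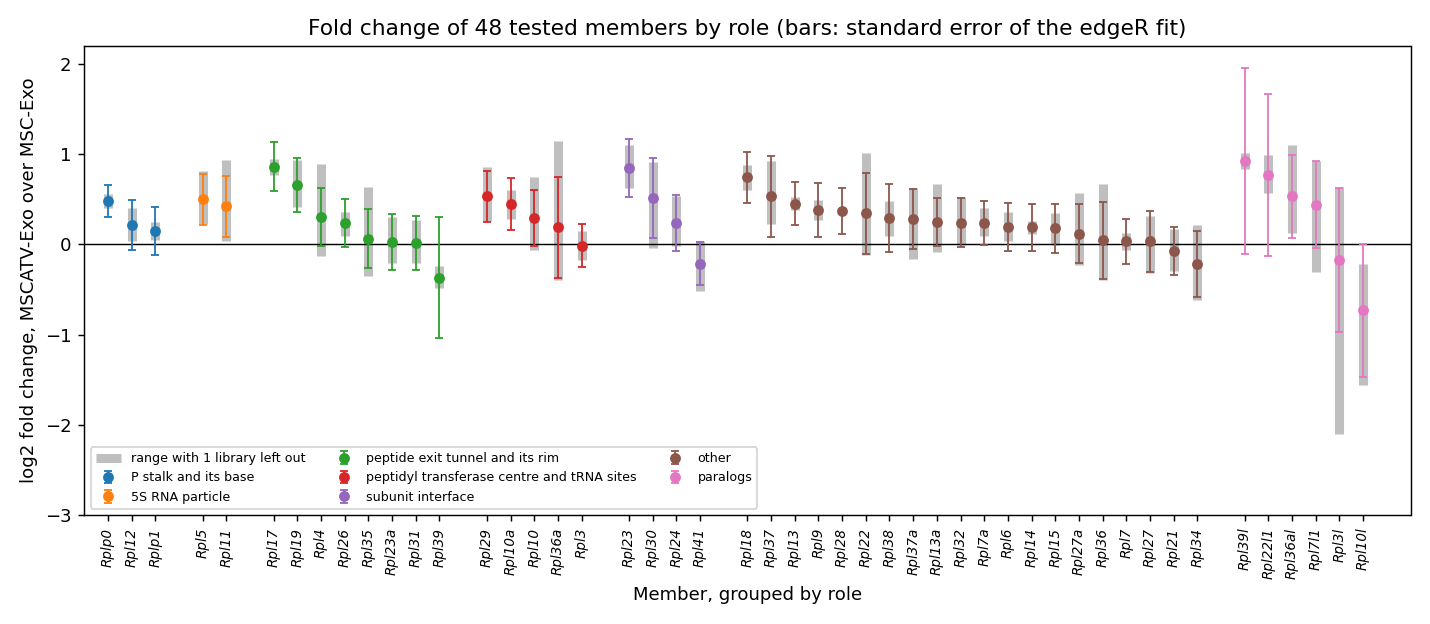
Log2 fold change (MSCATV-Exo over MSC-Exo) with the SE of the edgeR fit for 48 tested members grouped by role, with grey bars for the range when 1 library is left out; Rpl30l1 is not drawn because its SE is 2.08. Most points lie just above 0, Rpl17 and Rpl23 are the highest standard members at 0.86 and 0.85, and the errors of the low-count paralogs are the widest.

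The paralogs scattered widely, with 5 of 7 above 0 and a median of 0.44. Rpl10l had 8.10 and 14.6 CPM in MSC-Exo and 3.84 and 9.81 CPM in MSCATV-Exo, with a log2 fold change of -0.73 ± 0.73 (SE). Rpl3l had 13.3 and 9.86 against 17.9 and 2.67 CPM and Rpl22l1 had 4.68 and 3.47 against 7.5 and 6.42 CPM, with -0.17 ± 0.80 and 0.77 ± 0.89 (SE). Rpl7l1 and Rpl36al, at 0.44 ± 0.48 and 0.53 ± 0.46 (SE), overlapped between the groups. When a library was left out, Rpl36al ranged from 0.12 to 1.10 and Rpl10l from -1.55 to -0.21. Rpl30l1 had 14 and 2 against 0 and 21 counts, and a library without a read leaves room for 3 counts or 0.504 CPM. Its libraries of 1 group differed by more than the groups did, so it gives no size.

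Over the remaining 21 tested members, which are neither in the role lists nor paralogs, 18 were above 0 and the median was 0.24. Among those below 0 were Rpl21 and Rpl34, at -0.08 and -0.22, and their groups overlapped. Rpl34 falls outside the rule for named genes and was picked after its value was seen, and it ranged from -0.61 to 0.22 when a library was left out. Across the 43 standard members, log2 fold change had a Spearman's rho of -0.19 with mean RPKM and of 0.24 with gene length, given as a description over genes measured in the same libraries.

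The authors' deposited table, whose test is not stated, gives a q-value under 0.05 for 14 of these 50 members, 11 higher and 3 lower in MSCATV-Exo. For all its 38021 rows the share is 34.3%, with 12.4% higher and 21.9% lower. The 11 are Rpl10a, Rpl11, Rpl13, Rpl17, Rpl18, Rpl19, Rpl23, Rpl28, Rpl29, Rpl5 and Rplp0, and the 3 are Rpl10l, Rpl34 and Rpl41. For Rpl17 the authors' deposited table gives mean RPKM of 70.3 and 119, a log2 ratio of 0.76 and a q-value of 7.42e-09, where edgeR on the deposited counts gave an adjusted p of 0.9999.

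Start sites bear on these genes because the TOP tract lies at the first bases of their mRNAs. Only mouse start sites were at hand (RefSeq, GRCm38.p6), so the following sequences are those of mouse genes with the same symbols and were not read from these libraries. Each shows 15 bases on either side of an annotated start on the transcript's strand, and capitals mark a C followed by at least 6 pyrimidines. Rpl19 has another annotated start, without a run, that is not shown. In the Rpl19 sequence shown, the marked run lies in the 15 bases before the annotated start, and in Rpl28 and Rpl35 it spans the start. Rpl18, Rpl19, Rpl28 and Rpl35 are shown as members with such a run, the first 3 from the 10 with the smallest p and Rpl35 as one without a difference, and Rplp0 and Rpl23 as members with small p and no run in the window.
Rpl18 (chr7:45718056-45718085, plus): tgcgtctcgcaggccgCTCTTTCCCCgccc
Rpl19 (chr11:98026909-98026938, plus): tgggCTCTCCCCTTCgcagataatgggcgg
Rpl28 (chr7:4792950-4792979, plus): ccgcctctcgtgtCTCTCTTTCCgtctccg
Rpl35 (chr2:39005117-39005146, minus): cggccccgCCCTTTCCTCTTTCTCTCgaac
Rplp0 (chr5:115559452-115559481, plus): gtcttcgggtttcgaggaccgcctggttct
Rpl23 (chr11:97782425-97782454, minus): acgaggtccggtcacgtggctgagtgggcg

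A run of this kind, at least 7 bases long and within 20 bases of an annotated start, was found for 21 of the 40 member symbols that matched the mouse table, or 52.5%. It was found for 13 of 22 small-subunit symbols (59.1%), 8 of 40 symbols of mitochondrial large-subunit proteins (20.0%) and 21.4% of all 27025 symbols in the table. Only the transcript's strand was searched, and a match is a description of letters. A run or its absence near an annotated start does not show whether the mRNA carries a TOP tract. Tested members with a run had a median log2 fold change of 0.29, with 17 of 19 above 0. Members without one had 0.28, with 16 of 19 above 0, so the medians with and without a run were close.

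Related gene lists gave context. Of 31 tested small-subunit genes 29 were above 0, with a median of 0.43, and 16 were separated upward and 0 downward. The background was 16.1% upward and 17.4% downward over all tested genes, and 42.2% and 10.2% over the 275 other abundant genes. Here too MSC-Exo replicate 2 stood above replicate 1, for 26 of 31 genes with a median log2 ratio of 0.35. The difference between the 2 subunits was not tested. Of 42 tested genes of the mitochondrial large subunit, which is built from other proteins, 21 were above 0 and 21 below, with a median of 0.04.

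Translation factors whose mRNAs carry a TOP tract had 18 of 23 genes above 0 and a median of 0.24. Pabpc1, the poly(A)-binding protein, had 1706 and 2147 counts in MSC-Exo, against 2900 and 2920 in MSCATV-Exo. It had a log2 fold change of 0.59 ± 0.18 (SE) and an adjusted p of 0.0253 in DESeq2 and 0.9999 in edgeR. Factors that assemble the 60S subunit were near balance, with 25 of 45 above 0, a median of 0.16 and median levels of 5.16 to 6.02 RPKM. Rrs1, which helps to load the 5S particle with Rpl5 and Rpl11, was lower, with 116 and 118 counts in MSC-Exo, against 32 and 30 in MSCATV-Exo, and its log2 fold change was -1.92 ± 0.53 (SE). DESeq2 called it at an adjusted p of 0.0271 and edgeR did not, at 0.9999. The other assembly factors under an unadjusted edgeR p of 0.05 were higher in MSCATV-Exo, the nucleolar protein Ncl at 0.43 ± 0.17 and Ppan at 1.32 ± 0.59 (SE).

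Ribosomal protein genes have many processed copies in mammalian genomes. The gene table lists other rows described as the same proteins, and these are called copies here by description alone. Which of them are processed copies and which are further genes or duplicated loci was not tested. Outside the members, 991 rows are described as the same proteins as the 46 standard members, 80 of them typed as protein-coding. The sources used here do not state how reads that fit both a gene and a copy were assigned. These rows held 22770 and 20331 counts in MSC-Exo, against 21990 and 20438 in MSCATV-Exo, more than the 14007, 17097, 18173 and 19064 counts of the 46 genes themselves. In CPM the copies summed to 4100, 3712, 4025 and 3644, and the genes to 2522, 3122, 3326 and 3399, so the copies were lower in replicate 2 of each group while the genes were lowest in MSC-Exo replicate 1.

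Over the 642 tested copies 321 were above 0, and their median log2 fold change was -0.0010; the difference from the members was not tested. For a median member 52.1% of the reads of its protein family lay on copies. With copies added, 32 of 46 families were higher in MSCATV-Exo and the median log2 ratio was 0.13. Rplp0, with 12.3% of its family's reads on copies, kept 0.41 and separated groups. Rpl18, Rpl17 and Rpl23 also stayed separated but at 0.41, 0.31 and 0.21, with 51.3%, 63.9% and 52.0% on copies. For Rpl19, with 60 copies holding 86.3%, the family was at 0.08 and the groups overlapped.

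Adding copies also brought overlap for Rpl13, Rpl10a, Rpl29 and Rpl5, at 0.09, 0.09, 0.24 and 0.31. For Rpl28 the family log2 ratio was 0.48 and the groups stayed apart. The families above belong to the members with the smallest edgeR p, whose own rows were all separated upward. In other families, Rpl30, Rpl11 and Rpl24 overlapped on their own rows but separated upward with copies, at 0.59, 0.42 and 0.15. Rpl22, Rpl27 and Rpl15 did so too. Rpl3 and Rpl21 went from overlap to downward separation, at -0.22 and -0.11, and Rpl14 from upward to downward. Upward separation was lost for Rpl7a, Rpl9, Rpl37, Rpl38 and Rplp1. Rpl28 lies within the listed span of Vom2r7 on the same strand, which had 23, 18, 6 and 2 counts. The end of Rpl35 overlaps Wdr38 on the other strand, which had 42, 69, 57 and 39 counts, and the library kit does not mark strand, so reads of the shared bases cannot be told apart.

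**Figure D5:**
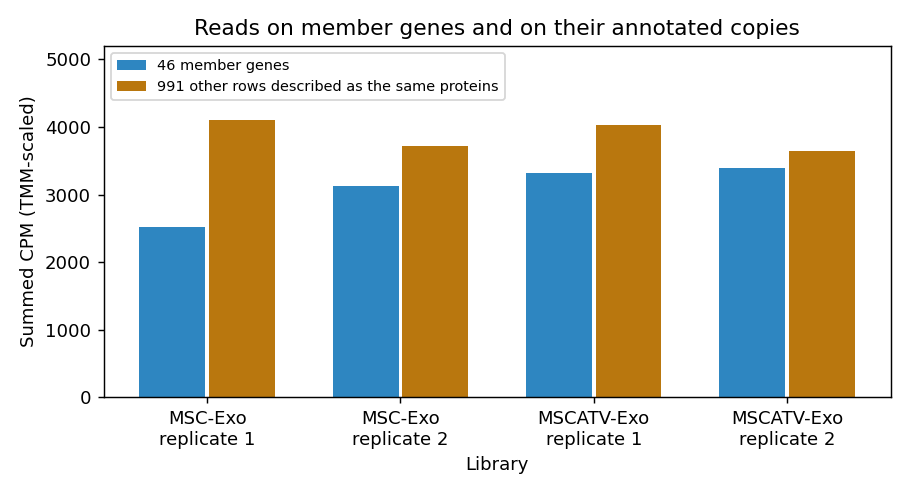
Summed CPM of the 46 standard member genes and of the 991 other rows described as the same proteins, in each library. The copies hold 4100, 3712, 4025 and 3644 CPM and the genes 2522, 3122, 3326 and 3399 CPM.

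The 3 members without a count had reads on copies. Rows described as Rpl35a, a surface protein of the subunit, numbered 23 and held 286 and 288 counts in MSC-Exo, against 156 and 264 in MSCATV-Exo. The protein-coding copy LOC100359498 (chr11:70963223-70967146) took 70, 107, 89 and 97 of them. A further 6 rows were described as Rpl8, which sits near the catalytic centre, with 80, 82, 126 and 85 counts. The 5 rows described as Rplp2, the other protein of the stalk's tip, held 13, 18, 38 and 54 counts. The level of 0 given for these 3 genes is that of their own rows.

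Summed over the members, large-subunit genes took 0.269% and 0.326% of gene counts in MSC-Exo, against 0.314% and 0.348% in MSCATV-Exo. Wilson intervals at 95% were 0.265 to 0.274, 0.321 to 0.331, 0.309 to 0.318 and 0.343 to 0.353, which reflect counting error alone, as the reads carry no molecular identifiers and may repeat a molecule. MSC-Exo replicate 2 lay above MSCATV-Exo replicate 1, and all 4 intervals were apart, so libraries of 1 group differed beyond counting error. The group means were 0.298 ± 0.040% and 0.331 ± 0.024% (SD, n = 2), with an exact two-sided permutation p of 0.667, where 2 against 2 cannot go below 0.333. The difference of 0.033 percentage points was 0.00504 without MSC-Exo replicate 1 and 0.0618 without MSC-Exo replicate 2. Leaving ribosomal RNA features and LOC257642 out of the total gave 0.428 and 0.521 against 0.554 and 0.567%, with no overlap and the smallest possible p of 0.333.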

How the data were processed

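RNA was sequenced from 4 exosome libraries, made with an unstranded kit. The submitters' processing notes name TopHat2 and the rat build, as rn6 and as Rnor_6.0; the version, the counter and the annotation release are not given in the sources used here. The authors deposited whole-number read counts per gene and RPKM values, which are counts divided by gene length and library total. In their comparison table the authors deposited a log2 ratio of group mean RPKM and a p-value and q-value from a test that is not stated.

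The main test was edgeR's two-sided quasi-likelihood test (version 4.0.16, R 4.3.3) over the 33480 genes kept by filterByExpr, with TMM factors and Benjamini-Hochberg adjustment. CPM here are counts scaled to the TMM-adjusted total, and a library at 0 leaves room for 3 counts or 0.504 to 0.561 CPM. Named with values were members of the role lists, the 10 with the smallest p, the 5 highest and 5 lowest by level, those at 0 in a library and those lower in both MSCATV-Exo libraries, in all 37 members, 34 of them tested. The values of 1 member and of 1 further listed gene are not reported here. Copies were found by their descriptions. Members and lists were chosen with earlier results of these data known. The alternatives tried were RLE factors, DESeq2 1.42.0, total counts, keeping all genes, a minimum mean of 1 CPM, a replicate block, leaving out each library, limma 3.58.1 on log2(RPKM + 1) and log2(RPKM + 0.1) for genes with a mean of at least 1 RPKM, and no rRNA features.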

Additional observations from a re-analysis of the deposited data

How the results depend on the processing

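The count of genes called was 0 in edgeR with TMM, RLE or total-count scaling, with a mean of at least 1 CPM, without rRNA features, and in limma with either pseudocount. It was 106 in DESeq2 (51 higher and 55 lower), 8 without a filter on low counts, and 1 to 168 when 1 library was left out: 1 and 2 without the first or second MSC-Exo library, 27 and 168 without the first or second MSCATV-Exo library, where the lone library is assumed to vary like the others. No member was among the calls except Rpl17 and Rplp0 in DESeq2. With the replicate number as a block, 4 genes and no member were called and 41 of 50 members were above 0. The difference between replicates 1 and 2 in MSC-Exo was not correlated with that in MSCATV-Exo (r = -0.000516 over 33480 genes). A single correlation over all genes cannot tell whether same-numbered libraries share a culture or a batch, which is not labelled. The count of members above 0 was 32 to 42 and the median 0.15 to 0.39 when a library was left out, and 36 to 42 and 0.15 to 0.26 otherwise. The difference in summed share was 0.00504 to 0.0618 percentage points when a library was left out. Of 34 named members, 19 kept their sign under all 13 alternatives and 11 changed it only when a library was left out. The other 4 were Rpl23a (total counts -0.068, limma -0.056 and -0.057), Rpl31 (-0.082, -0.076 and -0.076), Rpl35 (total counts -0.036) and Rpl30l1 (block -0.62, limma -0.24 and -1.41). Leaving out a library moved the log2 fold change from -0.064 to 0.75 for Rpl10, -0.29 to 0.17 for Rpl21, -0.21 to 0.30 for Rpl23a, -0.021 to 0.53 for Rpl24, -0.17 to 0.15 for Rpl3, -0.039 to 0.91 for Rpl30, -0.21 to 0.27 for Rpl31, -0.0046 to 0.53 for Rpl32, -0.35 to 0.64 for Rpl35, -0.39 to 1.14 for Rpl36a, -0.13 to 0.89 for Rpl4, -0.52 to 0.043 for Rpl41, -2.10 to 0.63 for Rpl3l, -0.30 to 0.93 for Rpl7l1 and -6.00 to 2.28 for Rpl30l1, where the lower value rests on an MSCATV-Exo library without a read. The cause was not tested. Among the named members whose sign held, moves of over 1.5 times from the value with all libraries were found, beside those in the report, for Rpl12 (0.038 to 0.41), Rplp1 (0.050 to 0.25), Rpl26 (0.096 to 0.36), Rpl10a (0.29 to 0.60) and Rpl39 (-0.49 to -0.24). Depth sets the floor of 3 counts, or 0.504 to 0.561 CPM.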
